A study of Rattus norvegicus with 70 samples.

Results

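The peaks described here lay inside or beside annotated genes of the rat liver genome, but more than 5000 bp from the transcript start they were assigned to. They came from the authors' deposited list of places where DNA bound by a methyl-CpG binding protein gave more or fewer reads after high-dose diethylnitrosamine (DEN) than in a promoted control. A peak was kept when it was on an autosome, when its distance from the start was over 5000 bp in either direction, and when it overlapped no peak of the other time. Each peak was counted once by time, direction and position. This gave 11797 of the 35323 unique peaks of the list, or of 34597 on autosomes. Another 176 far peaks on autosomes were left out because they overlapped a peak of the other time, and 85 far peaks lay on the X chromosome. The peaks were thus chosen by their deposited distance and, through the authors' list, by their reads in the 2 sets. These values are given as a description and carry no test.

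The rats were of strain Crj:CD(SD)IGS. DEN, a carcinogen that alkylates DNA, was given at 30 mg/kg for 1 week and followed by phenobarbital at 500 ppm in the drinking water, a promoter of liver tumours. The promoted control had 0.5% methylcellulose as the vehicle and the same phenobarbital. Liver was sampled at partial hepatectomy, after 1 week of promotion, or at terminal euthanasia, after 6 weeks, and every rat of the second sampling had been through the hepatectomy, controls included. Each condition had 5 libraries at each time, from 5 livers by the labels, among 70 libraries in 14 groups. The other groups had vehicle and plain water, or phenobarbital after DEN (3 mg/kg), thioacetamide (45 mg/kg), the antihistamine methapyrilene (100 mg/kg) or the analgesic acetaminophen (1000 mg/kg). The peak list calls its times 5w and 11w, and here the first was taken to be the hepatectomy and the second the terminal sampling. It gives 1 count for each of the 2 sets and none for single rats, so its differences have no replicate check.

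In mammals most CpG sites in gene bodies are methylated, in introns as well as exons, while CpG-rich transcript starts usually are not. A methyl-CpG binding protein pulls down double-stranded DNA that carries several methylated CpGs, so reads from such a library count methylated fragments and do not give the methylated share of a site. Introns also hold enhancers and repeated elements, and their methylation differs between cell types. In bulk liver a difference in methylated fragments cannot be told apart from a difference in the mix of cells.

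At partial hepatectomy 9580 of 9921 far genic peaks (96.6%) had more reads after DEN, and 341 had fewer. The terminal list held 1876 such peaks, of which 616 (32.8%) had more reads after DEN and 1260 (67.2%) had fewer. The far peaks thus ran mostly one way at the first time and mostly the other way at the second. The rest of the list had the same split. Peaks within 5000 bp of a start were higher after DEN in 94.5% of cases at partial hepatectomy and 38.7% at the terminal time, and peaks between genes in 95.2% and 30.4%. Within the far peaks the split hardly moved with distance. From 5000 to 10000 bp from the start 95.7% were higher at hepatectomy, and beyond 500000 bp 96.0% were. The lowest terminal share was 27.1%, beyond 500000 bp, and the highest was 35.9%, from 10000 to 50000 bp. By chromosome the share that was higher ran from 94.4% (chromosome 20) to 99.3% (chromosome 17) at hepatectomy. Terminal shares ran from 23.8% (chromosome 11) to 53.2% (chromosome 19, with 47 peaks).

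**Figure D1:**
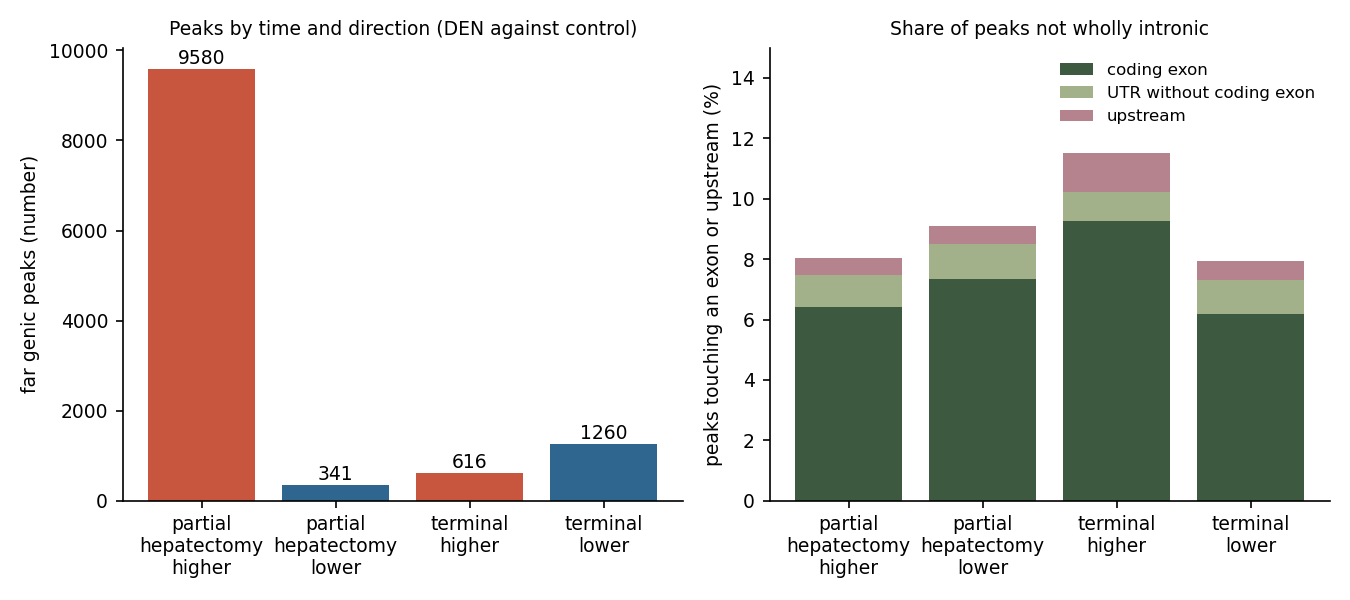
Left, the number of far genic peaks by time and by direction after DEN against the promoted control. Right, the percentage of each set that touched a coding exon, an untranslated region without a coding exon, or sequence upstream of the start, which was largest (11.5% in all) in the peaks that were higher at the terminal time; the remainder of each set was intron only.

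Libraries differed in how evenly their reads were spread, and this split was uneven between the 2 sets. Over the 17174 transcript-start regions that the authors also tabulated, 9 of the 70 libraries had no read in under 1% of regions (0.611% to 0.932%), against 1.60% to 5.39% in the other 61. They are called weakly enriched here. At partial hepatectomy 2 of the 5 DEN libraries were weakly enriched and 0 of the 5 promoted controls. Terminal groups had 1 of 5 each. The peak list cannot be recomputed without them, and their part in the direction of the far peaks was not tested.

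Most far peaks were small and rested on few reads. The set with more reads had a median of 19 (interquartile range 16 to 23, lowest 15, highest 1727), and the other set had a median of 2 (interquartile range 1 to 3, highest 67). The median width was 183 bp, from 150 to 465 bp. The other set had no read at all in 865 (9.03%) of the peaks that were higher at hepatectomy, in 6 of those that were lower, and at the terminal time in 11 that were higher and 27 that were lower. The authors' enrichment factor, the ratio of the 2 counts times a constant close to 1, is blank there. Elsewhere its median was 7.57, from 3.15 to 65.5. With at least 30 reads required in the set with more, 583 higher and 77 lower peaks were left at hepatectomy, and 57 higher and 77 lower at the terminal time. The share that was higher was then 88.3% and 42.5%, so the split between times was narrower among the deeper peaks. This limit was chosen after the data were seen.

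**Figure D2:**
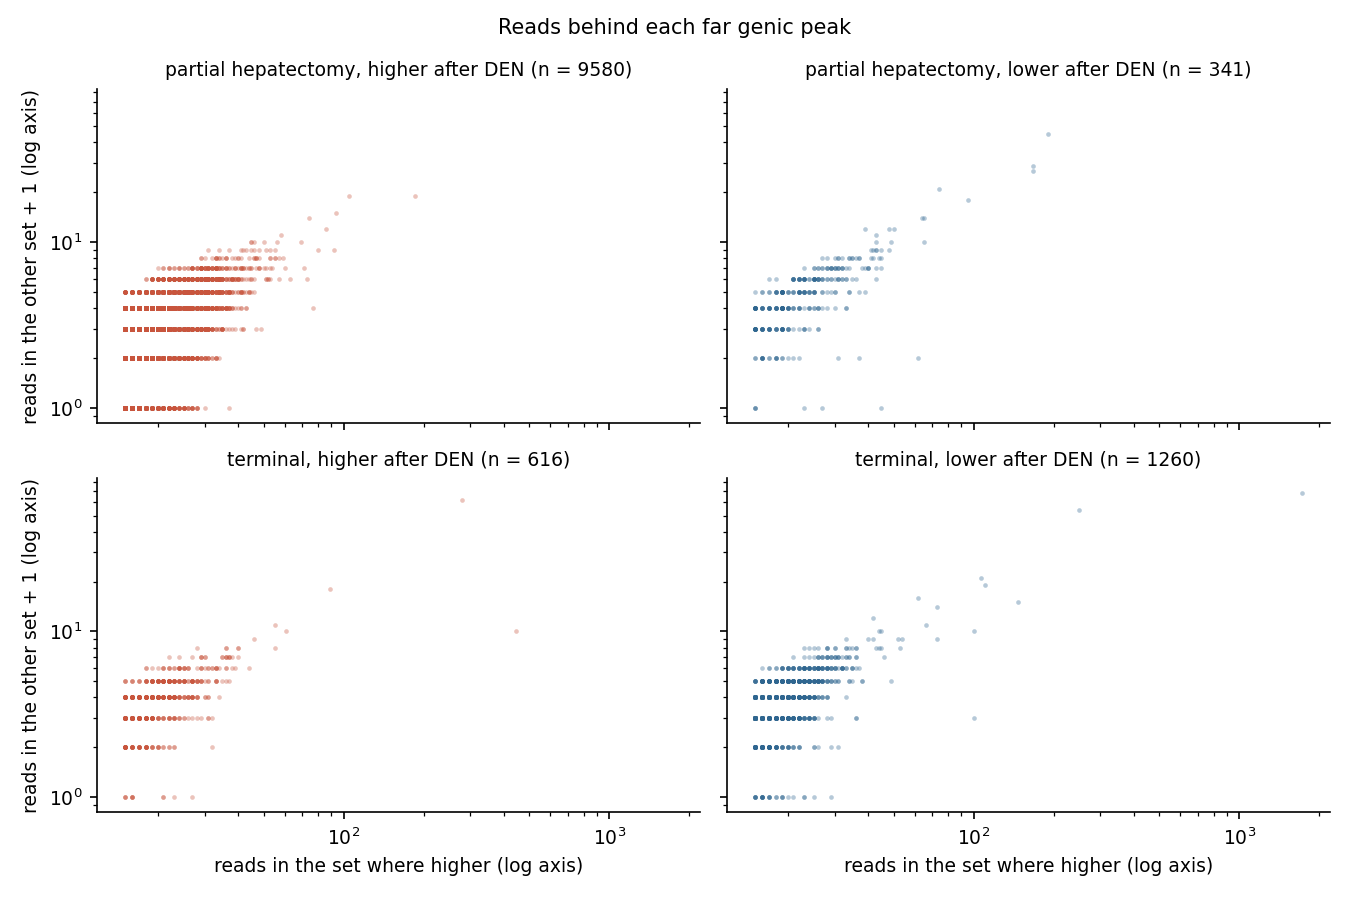
Reads of each far genic peak in the set where it was higher (horizontal, log axis) against reads in the other set plus 1 (vertical, log axis), by time and direction. Most points lie between 15 and 30 reads on the horizontal axis; the point at 1727 reads is the terminal peak in Tyw1.

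The peaks nearest the distance limit looked like the rest. Just inside it were a peak in F1M0P1_RAT at 5002 bp (22 against 3 reads, higher at hepatectomy), one in Rnf160 at 5005 bp (24 against 6, higher at the terminal time) and one in Unc5c, a netrin receptor, at 5008 bp (17 against 0, higher at hepatectomy). Just outside were peaks of Slc31a2 at -4999 bp (15 against 0), E9PTQ6_RAT at -4999 bp (24 against 2) and Gpr171 at 4996 bp (20 against 3), all higher at hepatectomy. Names of the form F1M0P1_RAT are protein entry names that the list prints where it gives no gene symbol. They made up 997 of the 5196 gene names.

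Introns held nearly all far peaks. By the list's annotation 10825 (91.8%) lay in introns only, 774 (6.56%) touched a coding exon, 126 (1.07%) touched an untranslated region without a coding exon, and 72 (0.610%) lay upstream of the transcript. In 659 of the 774 the peak spanned a coding exon and an intron. Intron-only peaks made up 92.0% of those higher and 90.9% of those lower at hepatectomy, and 88.5% of those higher and 92.1% of those lower at the terminal time. Peaks on a coding exon were therefore most frequent (57 of 616, 9.25%) among those higher at the terminal time, and least frequent (78 of 1260, 6.19%) among those lower then. Coding-exon peaks lay nearer to the start than intron-only peaks (median 30484 against 56007 bp), with the same median counts of 19 and 2 reads. The median distance over all far peaks was 53430 bp and the farthest was 1475480 bp, in Magi2. Another 335 far peaks were also within 5000 bp of the start of a different transcript.

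Longer genes held more far peaks, though not more for their length beyond the first 5000 bp. Far peaks carried 5196 gene names in 12071 pairs of a peak and a gene, since 275 peaks had more than 1 name. Of these genes 2744 had 1 far peak, 1066 had 2, 818 had 3 or 4, 442 had 5 to 9 and 126 had 10 or more. The 568 genes with 5 or more held 36.9% of the pairs. Among the 16561 genes of the region tables, 21.6% had a far peak and 9.87% had 2 or more, and 19.6% had one at hepatectomy and 6.18% at the terminal time. In 5 bands of rising RefSeq length the share with a far peak was 0.353%, 6.10%, 25.4%, 48.2% and 69.8%, the last for genes over 107016 bp. A gene under 5000 bp can hardly hold a peak farther than that from its own start, so part of this rise is set by the rule itself. A longer gene also offers more sequence. Summed over genes, the number of far peaks per 100 kb of RefSeq length was 0.254, 0.762, 1.13, 1.21 and 1.04 in the same bands and 1.06 over all. By whole length it thus rose up to the fourth band. Counting only the length beyond 5000 bp of each gene, it fell from 1.43 in the second band to 1.37, 1.30 and 1.06 in the next ones. The first band, of genes up to 5488 bp, has hardly any such length and gave 40.6. Lengths came from the RefSeq table of another assembly and were found for 76.1% of the genes with a far peak, too few for a check over those genes alone.

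The gene with most far peaks was Amph, which codes for amphiphysin, a protein of synaptic vesicle endocytosis. It had 32, all higher after DEN at partial hepatectomy and none at the terminal time. They ran from 11686 to 228228 bp from the start (chromosome 17, 53574632 to 53791347 in the files' coordinates, with the build not given in the sources used here). After DEN they had 16 to 47 reads (median 21.5), and in the promoted control 0 to 6 (median 2), summing to 770 against 66. Of the 32 peaks 29 were in introns only, 2 spanned a coding exon and 1 a 5' untranslated region, and 15 lay between 190000 and 230000 bp from the start. That is 13.1 far peaks per 100 kb of RefSeq length. Over 1403 genes longer than 100000 bp with a far peak the median was 1.48 per 100 kb and the 90th percentile 3.05. The next highest was 7.41, in Farp2 (8 peaks, all higher at hepatectomy). No other window of 250 kb held as many far peaks at hepatectomy. The window with 31 peaks of Amph and of D3Z9P8_RAT had 747 reads against 68, while the next had 16 and the median of 4238 windows with any was 2. Counting every hepatectomy peak of the list, the window stood out less. It then held 34, and a window with LOC681204 on chromosome 8 held 33, of which 12 were far peaks.

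The Amph peaks can be set against the transcript-start region of the gene, which holds none of them. There the deposited signal at hepatectomy was 8.43, 15.6, 31.8, 15.3 and 9.40 in the promoted controls and 26.5, 29.4, 31.6, 40.1 and 15.4 after DEN. The groups overlapped, and the 2 weakly enriched DEN libraries had the 2 highest of the DEN values, 31.6 and 40.1. The same region gave at the terminal time 36.3 ± 14.2 in the controls and 31.9 ± 14.6 after DEN (SD, n = 5), with the difference in the other direction.

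The next genes by number of far peaks were long ones, and their peaks were spread over most of the gene. PRKN2_RAT (parkin, a ubiquitin ligase) had 25, of which 20 were higher and 1 lower at hepatectomy and 1 higher and 3 lower at the terminal time. Magi2, a scaffold protein of cell junctions, had 24, with 22 higher at hepatectomy and 1 in each direction at the terminal time. Dcc, a netrin receptor, also had 24, of which 19 were higher at hepatectomy, and at the terminal time 1 was higher and 4 were lower. Opcml, a cell adhesion molecule of the IgLON family, had 20 higher at hepatectomy and 4 lower at the terminal time. Accn1, an acid-sensing ion channel, had 23 and CTND2_RAT, delta-catenin, had 22. Grm8, a metabotropic glutamate receptor, Pard3, a cell polarity protein, and Cacna2d3, an accessory calcium channel subunit, had 21 each. The unnamed entries, F1M4U8_RAT and D4AA04_RAT, had 23 each. Apart from Amph and Pard3, these genes had 2.59 or fewer far peaks per 100 kb where a length was known.

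**Figure D3:**
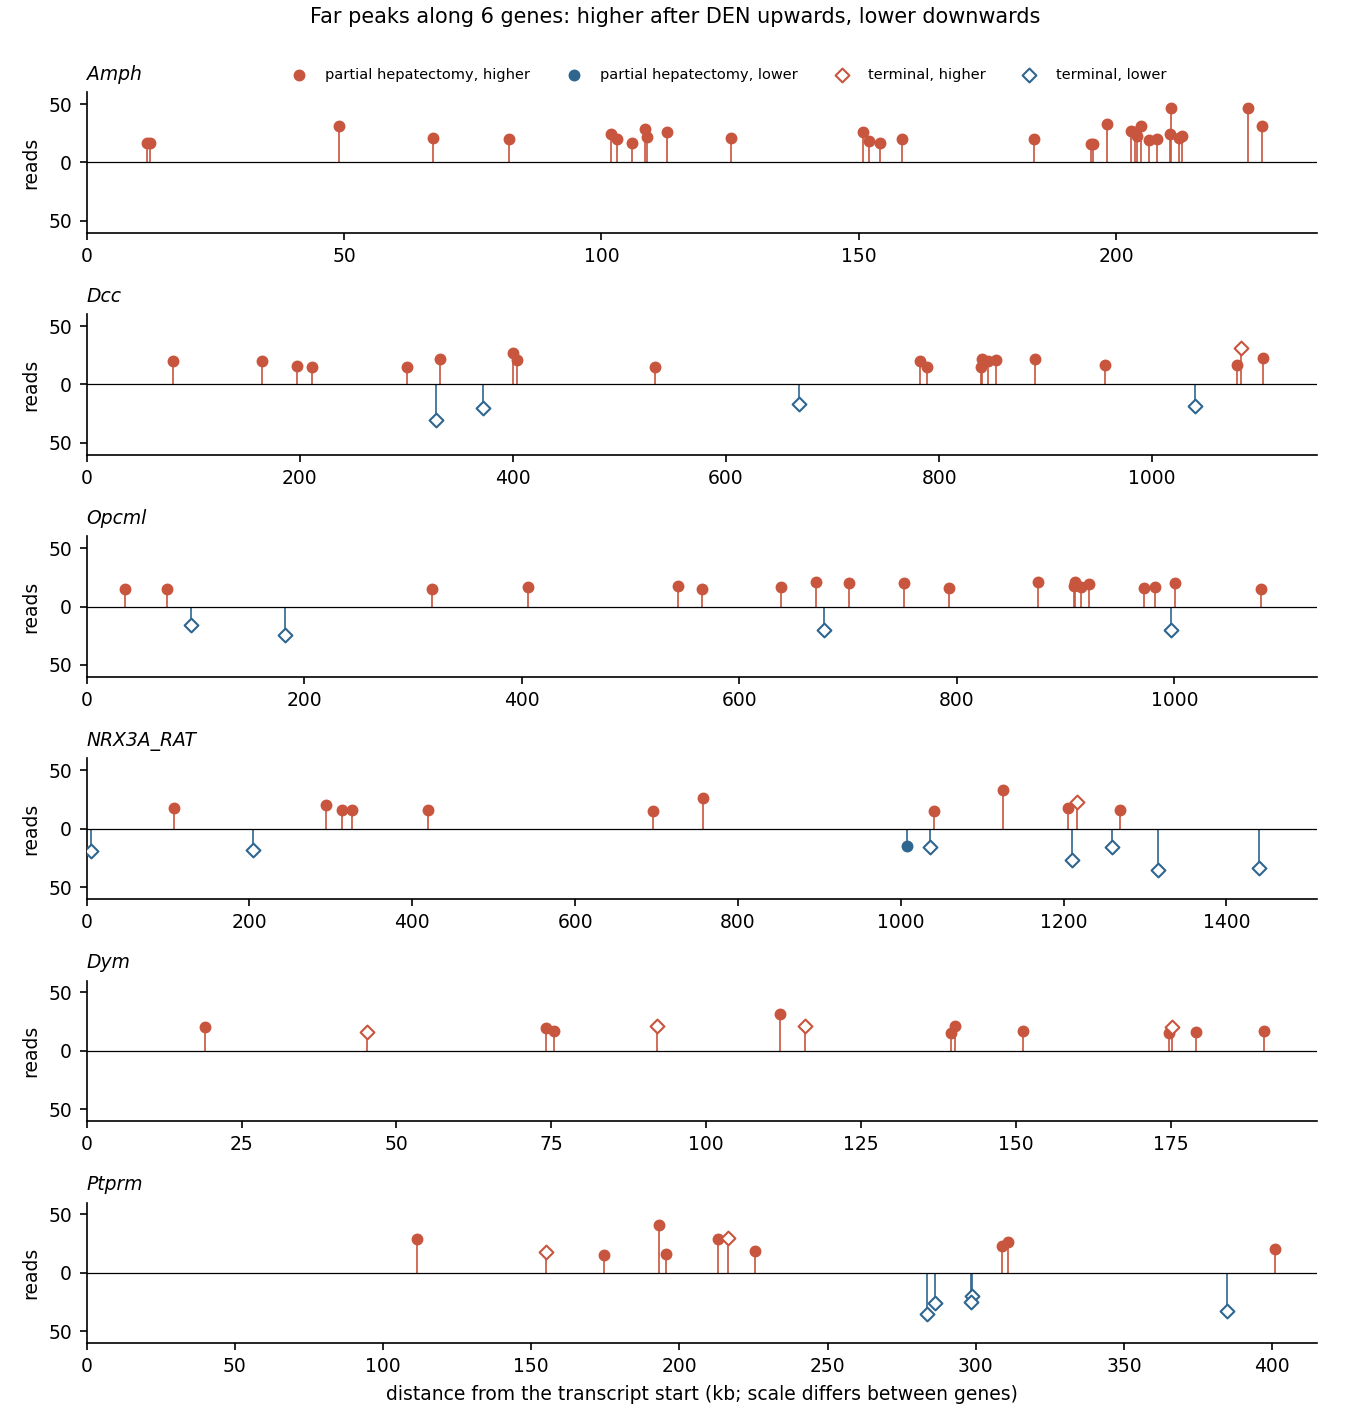
Far peaks along Amph, Dcc, Opcml, NRX3A_RAT, Dym and Ptprm by distance from the transcript start (kb). Stems give reads in the set where the peak was higher, upwards for peaks higher after DEN and downwards for lower; filled circles are partial hepatectomy and open diamonds the terminal time. All 32 peaks of Amph point up at hepatectomy, whereas 4 of 5 terminal peaks in Dcc and all 4 in Opcml point down.

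Genes with several far peaks at one time mostly had them all in the direction that was common at that time. At hepatectomy 2096 genes had 2 or more far peaks, of which 1879 had them all higher, 2 all lower and 215 in both directions. Later, 277 genes did, of which 122 had them all lower, 19 all higher and 136 in both directions. NRX3A_RAT (neurexin 3-alpha, a presynaptic adhesion molecule) had most terminal peaks of the genes named, with 7 lower and 1 higher, beside 11 higher and 1 lower at hepatectomy. Ptprm, a receptor tyrosine phosphatase of cell contacts, had 5 lower and 2 higher at the terminal time and 9 higher at hepatectomy.

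Far peaks at both times were found in 1007 genes, which is 66.9% of the 1506 genes with a terminal peak and 21.4% of the 4697 with a hepatectomy peak. The 2 times share no library. In 544 of the 1007 (54%) all peaks were higher at hepatectomy and lower at the terminal time, in 260 (25.8%) all were higher at both, and in 109 they were higher at hepatectomy and mixed later. All were lower at both times in 11 genes and went from lower to higher in 5. The directions at the terminal time were close in genes with and without a hepatectomy peak: lower only in 59.8% against 64.7%, and higher only in 27.5% against 33.7%. Both directions occurred in 12.7% against 1.60%, in groups that differ in the number of terminal peaks per gene. Opposite directions with most peaks were in Opcml (20 higher, then 4 lower), F1M4U8_RAT (22, then 1), Plcb1, a phospholipase C (16, then 2), F1M9D7_RAT (15, then 3), Sult1c2 (16, then 1), Sult1c2a (15, then 2), Exoc4, an exocyst subunit (15, then 1), and Nfia, a transcription factor (13, then 3). The same direction was kept in Pard3 (18, then 3), Rora, a nuclear receptor (17, then 2), Zbtb20, a zinc finger repressor (13, then 2), and Dym (10, then 4). Fbxl17, LOC100361323, Cdh13 and Nedd4l had 15, 14, 14 and 12 higher at hepatectomy and 1 higher each at the terminal time.

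The peaks of the 2 times did not sit on each other, by the rule, and few were close. Of the 1260 terminal peaks that were lower, 51 (4.05%) lay within 1000 bp of a hepatectomy peak that was higher and 343 (27.2%) within 10000 bp. For the 616 terminal peaks that were higher the shares were alike, at 27 (4.38%) and 163 (26.5%). Neighbouring far peaks were a median of 64537 bp apart at hepatectomy, where 211 gaps were under 1 kb, and 569631 bp at the terminal time, where 9 were. A terminal window of 250 kb in Ptprm held 5 far peaks, all lower.

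A few far peaks had counts far above the rest. The deepest terminal peak and the deepest hepatectomy peak with more reads after DEN lay in the same gene. Tyw1 codes for an enzyme of wybutosine synthesis in transfer RNA. One intronic peak, 62560 bp from its start (chromosome 12, 27392453 to 27392647), had 67 reads after DEN and 1727 in the promoted control at the terminal time. A second, 81996 bp from the start, had 186 reads after DEN and 18 in the control at hepatectomy. These 2 peaks were 19253 bp apart and went in opposite directions. The next deepest at the terminal time were in LOC679805 (444 reads after DEN against 9), Sh3gl3, an endophilin (280 against 61), and Bcas3, where the control had 250 and DEN 53. At hepatectomy the control was higher in Syngr4, a synaptogyrin (190 against 44), and in Atrnl1 and Accn1 (167 against 26 and 28).

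By enrichment factor, among peaks with at least the median reads, the highest at hepatectomy were in CTND2_RAT (34 reads after DEN against 1, factor 32.2), E9PSI9_RAT, LOC100359544, Ncam1 (a neural cell adhesion molecule) and RGD1563862 (33 against 1 in each). Among those lower at hepatectomy the highest factor was in Ankrd6 (62 control reads against 1, factor 65.5), and then in Ppp3ca, a calcineurin catalytic subunit (37 against 1), F1M3G8_RAT (31 against 1), LOC100359662 and Pcbp3. LOC679805 led the peaks higher at the terminal time (factor 46.5), before Mad1l1, a spindle checkpoint protein (32 against 1), Akap7, Akap6 and Tlk1. Snx6, a sorting nexin, led the lower ones (100 control reads against 2, factor 53), before RGD1564114, F1LVI9_RAT and Pign, and Tyw1 came next with a factor of 27.3. Each of these 20 peaks lay in an intron. Since the other set held 1 or 2 reads in all but 2 of them, a single read moves such a factor by a large amount.

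Gene groups were counted from lists chosen with earlier results of these data known. Each list was cut to genes in the region tables or with a far peak. A list gene outside the region tables thus counted only if it had a far peak, which can raise the shares and rates of the lists. Values for all genes are over the region tables alone. Among 48 such genes of synaptic adhesion and cell recognition, 40 (83.3%) had a far peak. It was 41 of 55 voltage-gated ion channels (74.5%), 14 of 19 large genes of common fragile sites (73.7%), 31 of 48 neurotransmitter receptors (64.6%), 32 of 50 receptor tyrosine kinases and phosphatases (64%) and 30 of 47 tumour suppressors (63.8%). These lists also had long genes, with median RefSeq lengths of 565770 bp for synaptic adhesion and 1193833 bp for fragile sites against 17214 bp over all genes. Per 100 kb of RefSeq length synaptic adhesion genes held 0.763 far peaks and fragile-site genes 0.792, below the 1.06 of all genes. Above it were voltage-gated ion channels (1.098), neurotransmitter receptors (1.199), receptor tyrosine kinases and phosphatases (1.282) and tumour suppressors (1.341). Counting only the length beyond 5000 bp of each gene, voltage-gated ion channels were below all genes (1.12 against 1.17). Neurotransmitter receptors (1.22), receptor tyrosine kinases and phosphatases (1.31) and tumour suppressors (1.38) stayed above. By whole length again, the order over the remaining lists follows. The other lists ran from 0.646 (macrophage and lymphocyte) to 1.855 (endothelial), with stellate cell and matrix genes at 1.824 and hepatocyte function at 1.573. Against the 21.6% of all region-table genes with a far peak, hepatocyte function was level (10 of 47, 21.3%), and xenobiotic response (10 of 35, 28.6%) and the Wnt pathway (20 of 53, 37.7%) were above, with median lengths of 16258, 25665 and 26992 bp. Macrophage and lymphocyte genes had the lowest share (3 of 27, 11.1%). Of the remaining lists, 14 of 28 cadherins and catenins, 27 of 54 developmental transcription factors, 16 of 39 genes of the methylation and chromatin machinery, 6 of 15 endothelial genes and 10 of 33 proto-oncogenes had a far peak. Stellate cell and matrix genes (21 of 37, 56.8%) and tumour suppressors had median lengths of 38881 and 58566 bp. The length bands around these held 25.4% and 48.2%, at band medians of 27117 and 64994 bp, so the stellate list had longer genes than its band.

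**Figure D4:**
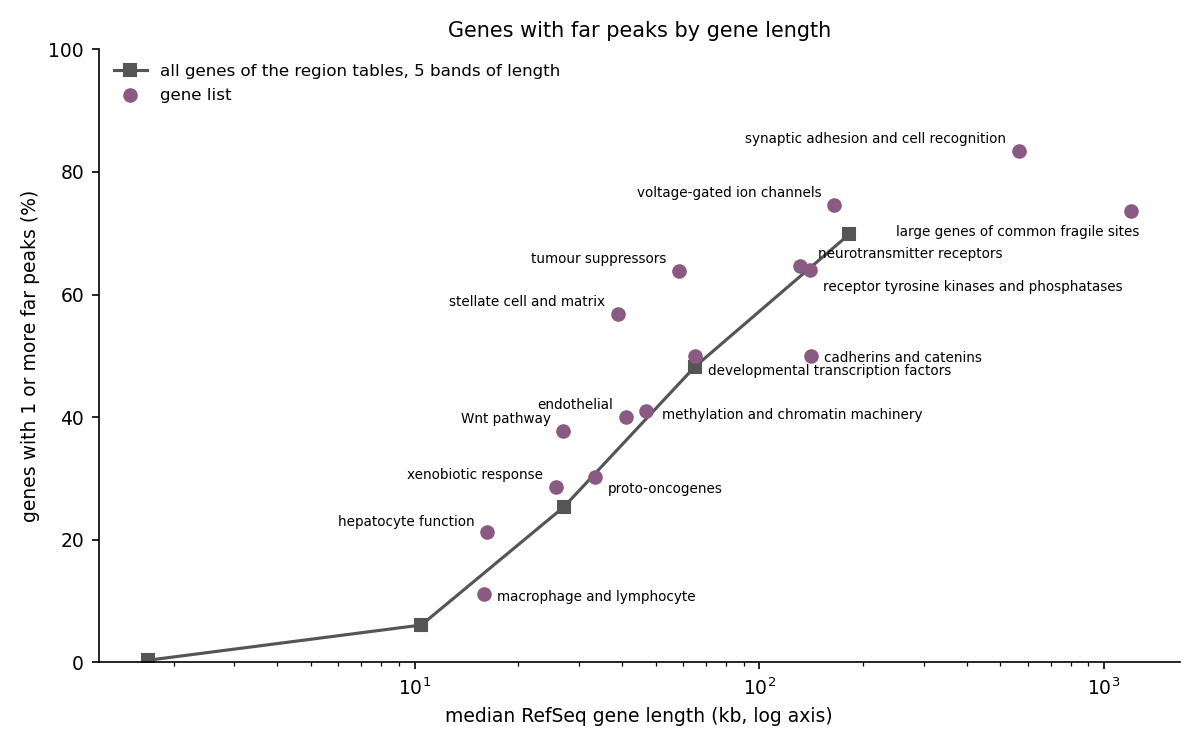
Percentage of genes with 1 or more far peaks against median RefSeq gene length (kb, log axis) for 5 bands of all genes in the region tables (squares) and for each gene list (circles). The lists count genes in the region tables or with a far peak. Most lists lie near the line of the length bands, from 11.1% for macrophage and lymphocyte genes to 83.3% for synaptic adhesion.

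In the lists with most far peaks directions followed the time as in the whole. In synaptic adhesion 217 far peaks were higher and 6 lower at hepatectomy, and 7 higher and 40 lower at the terminal time. In the fragile-site genes it was 147, 3, 6 and 24 in that order, and in the tumour suppressors 84, 1, 4 and 13. Fhit, a tumour suppressor at a fragile site, had 10 higher at hepatectomy and 3 lower at the terminal time. The developmental transcription factors were more even at the terminal time, with 11 higher and 15 lower, of which Rora had 2 higher and Nfia 3 lower. Of the lists with few terminal peaks, the Wnt pathway (3 higher and 2 lower) and hepatocyte function (1 each way) showed no such lean. Others leaned to lower, among them cadherins and catenins (2 higher and 7 lower), the methylation and chromatin machinery (2 and 6) and proto-oncogenes (0 and 4). Endothelial genes and macrophage and lymphocyte genes had 0 higher and 3 lower each. Of the liver genes Nr5a2, a nuclear receptor of bile acid and cholesterol metabolism, had 6 higher and later 1 lower, and Nr1h4, the bile acid receptor, had 3 higher. Por, the electron donor of cytochromes P450, had 1 higher at hepatectomy and 1 lower at the terminal time.

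Single libraries could be examined only where a far peak of one transcript fell in the tabulated start region of another, or of a second start of the same gene. Such regions are 5625 bp wide and so cover far more than the peak. They took in 134 of the 11797 far peaks, in 134 distinct places of which 130 were tested. The comparison of DEN with its control is the one that chose the peaks, so values follow without a test. Over 101 regions with a peak that was higher at hepatectomy, the median log2 difference of the deposited signal was 0.06, with 59 higher after DEN. Over all 15809 regions it was 0.04, with 54.8% higher. Over 5 regions with a lower peak it was -0.17, with 0 higher. Terminal values were 0.17 over 10 regions with a higher peak (8 higher after DEN) and 0.04 over 17 with a lower peak (9 higher). Over all 16008 regions the value was 0.07, with 61.4% higher. The 5 DEN and 5 control libraries did not overlap in 3 of the 101 regions, all higher after DEN, those of Med22, Acvr1 and Crem, where 1.05% of all regions did so. None of the other 32 tested regions was without overlap, where 0.152%, 0.306% and 0.0687% of all regions were lower at hepatectomy, higher at the terminal time and lower at the terminal time. Without the weakly enriched libraries the medians at hepatectomy were 0.13 over regions with a higher peak, 0.01 over regions with a lower peak and 0.08 over all regions. The median over regions with a lower terminal peak then became -0.03. Quantile scaling turned it too, to -0.08 with 4 of 17 higher. It lowered the one over regions with a higher terminal peak to 0.06 with 6 of 10 higher, where 50.3% of all regions were higher. Library numbers at hepatectomy were 7, 8, 43, 44 and 62 for DEN and 3, 4, 23, 24 and 42 for its control. With blocks of library numbers in the fit, the median over the 101 regions at hepatectomy was 0.004, with 52 higher. Over all regions it was then -0.003, with 49.5% higher.

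The regions whose peaks had most reads are given by library. For the peak of Elmo2 (35 reads after DEN, enrichment factor 11) in the start region of Slc35c2, the controls had a signal of 265, 153, 98.6, 171 and 148 at hepatectomy and DEN 146, 153, 104, 132 and 163. The groups overlapped and the mean was higher in the controls, against the direction of the peak. For F1LYW4_RAT in the region of Slc44a1 (32 reads) the controls had 194, 141, 158, 125 and 135 and DEN 112, 102, 74.8, 87.3 and 199. These groups overlapped through 1 DEN library, which was the highest of all, and 4 DEN libraries were below every control. In the region of LOC259245 (42 reads) the controls had 17.9, 2.22, 35, 10.9 and 11.3 and DEN 39.2, 11.6, 15.3, 25.1 and 20.5, with the mean higher after DEN and overlap again. In that of Acrbp (a peak of Ing4, 30 reads) the means were 318 ± 48.1 in the controls and 358 ± 107 after DEN (SD, n = 5).

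Among peaks lower after DEN at hepatectomy, that of F1M0A5_RAT in the region of Trim63, a muscle ubiquitin ligase, had most reads (45 in the controls). The controls had 221, 156, 176, 140 and 150 and DEN 198, 138, 92.1, 131 and 209, with the lowest value in a weakly enriched DEN library. In the region of Myl1, a myosin light chain, the controls had 210, 278, 273, 219 and 215 and DEN 196, 183, 152, 138 and 298. There 4 of 5 DEN libraries were below all controls and 1 was above. The same region also held a far peak of Myl1 that was higher after DEN at hepatectomy (18 reads against 0), so its signal went with one of its peaks and against the other. The regions of Leng1 and Fam26e overlapped too, with log2 differences of -0.23 and -0.13.

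At the terminal time the region of Lace1 with a higher peak (25 reads) had 228, 225, 277, 254 and 137 in the controls and 332, 311, 200, 346 and 383 after DEN. There 4 DEN libraries were above all controls, and the lowest of each group, 200 and 137, was its weakly enriched library. The regions of Lztr1 and Chad had log2 differences of 0.12 and 0.30, both with overlap. Among lower peaks, the region of Lrrc8b (25 control reads) had 526, 529, 395, 564 and 261 in the controls and 522, 523, 334, 610 and 674 after DEN, again with overlap and a higher mean after DEN. The regions of Abcc9, Rcl1 and G6b had log2 differences of 0.04, -0.08 and 0.10. In 3 of these 4 regions with a lower peak the fitted signal of the whole region was higher after DEN, and the values of all 4 overlapped.

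In 5 of 130 cases where a peak lay whole inside a region, its count was above the whole region's reads in the 5 libraries of its labelled group, which should not occur if both came from the same reads. Region reads are the deposited signal divided by its smallest step in each library. A hepatectomy peak of LOC680062 had 23 reads after DEN, while the region of Spetex-2F around it had 2 in the DEN libraries. A terminal peak of RGD1562624 had 107 control reads against 13 in the region of Spetex-2H, and a terminal peak of LOC680062 had 16 against 2. A hepatectomy peak of Mfsd8 had 15 against 5 in the region of LOC499602. One assigned to Clic1 had 17 against 13 in the region of RT1-CE5, where the control libraries held 215. The counts of the list and the values of the region tables therefore do not always rest on the same reads.

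The region of RT1-CE5, a class I gene of the rat major histocompatibility complex (chromosome 20, 3512607 to 3518232), was singled out after its values were seen. It held a far peak of Clic1 that was higher after DEN at hepatectomy (17 reads against 1) and another, less than 1000 bp away, that was lower after DEN at the terminal time (2 reads against 16). The region's signal at hepatectomy was 63.2, 78.9, 1.06, 28.4 and 53.6 in the promoted controls and 2.12, none, 4.80, 5.02 and 1.03 after DEN. The terminal values were 43.6, 42.8, 3.04, 40.3 and 19.5 in the controls and 16.4, 2.17, 2.12, none and none after DEN. The signal was thus lower after DEN at both times, with log2 differences of -3.24 and -3.04, against the direction of the first peak and in that of the second. At each time the groups overlapped through 1 control library, replicate 3 in both cases. The labels do not say whether equal numbers stand for the same rat, so the 2 times may not be independent here. The 25 libraries of the other conditions ran from no read to 51.5 at hepatectomy and from 0.928 to 47.1 at the terminal time, so libraries of 1 condition differed widely in this region.

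Gene assignment was doubtful in some cases. Far peaks beyond 1.2 times the RefSeq length of their gene were listed for 120 genes. Clic1, a chloride channel protein, had 18 far peaks out to 335225 bp, and Sult1c2 and Sult1c2a, a pair of neighbouring sulfotransferases, had 17 each, 16 and 15 of them higher at hepatectomy, out to 115714 and 137246 bp against RefSeq lengths of 49914 and 27444 bp. Names for these peaks depend on the list's gene models.

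A further pair of contrasts shared no library with the comparison behind the list and were tested in the same regions with limma and Benjamini-Hochberg adjustment. The first set the 4 other initiator groups against vehicle and water, a contrast that also includes phenobarbital against none. Neither time had a region past an adjusted p of 0.05 (percentage called 0 of all regions; 1239 and 669 regions had an unadjusted p under 0.05), and the lowest adjusted p in regions with far peaks was 0.461 at hepatectomy and 0.686 at the terminal time. The median log2 difference at hepatectomy was 0.17 over the 101 regions with a higher peak (76 of 101 higher than water) against 0.09 over all regions (65.1% higher). Without the weakly enriched libraries it was 0.09 against 0.04, and with quantile scaling 0.02 (63 of 101 higher), where 50.2% of all regions were higher. For the terminal time it was 0.17 over the 17 regions with a lower peak (11 higher) against 0.08, and 0.09 with quantile scaling. The second contrast set the terminal time against hepatectomy over the 5 conditions outside the list's comparison. It called 2 of 16385 regions (0.0122%), both higher at the terminal time, and none of the 130 with a far peak. The lowest adjusted p of the 130 was 0.514. An unadjusted p under 0.05 was found in 5 of the 130, against 899 of all 16385 regions. Without the weakly enriched libraries 5 regions were called, and 12 of the 130 had an unadjusted p under 0.05 (lowest adjusted p 0.161). Over all 15722 regions of that fit 1316 did. With the replicate number as a block within each condition 13 regions were called, again none of the 130. Of the 130, 8 then had an unadjusted p under 0.05, against 1081 of all 16385. The labels do not say whether equal numbers at both times stand for the same rat. The median log2 difference was 0.11 over the 17 regions with a lower terminal peak (14 higher at the terminal time) and 0.06 over the 101 with a higher hepatectomy peak, against 0.05 over all. Quantile scaling gave 0.05 and 0.01, where 8217 of all 16385 regions were higher. Apart from the removal of overlaps, the terminal libraries did not choose the hepatectomy peaks. In the 101 regions with a higher hepatectomy peak the median at the terminal time was 0.13. Of these 71 were higher after DEN, where 61.4% of all regions were. With quantile scaling the median was 0.04 with 56 of the 101 higher, where 50.3% of all were. None of the 101 passed the adjusted threshold of the limma fit (lowest adjusted p 0.252). They include the region of RT1-CE5, which also held a lower terminal peak that these libraries did choose. Its log2 difference of -3.04 was the lowest of the 101, against the direction of its hepatectomy peak. No p-value is given for the 17 regions with a lower terminal peak, since this comparison chose their peaks.

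**Figure D5:**
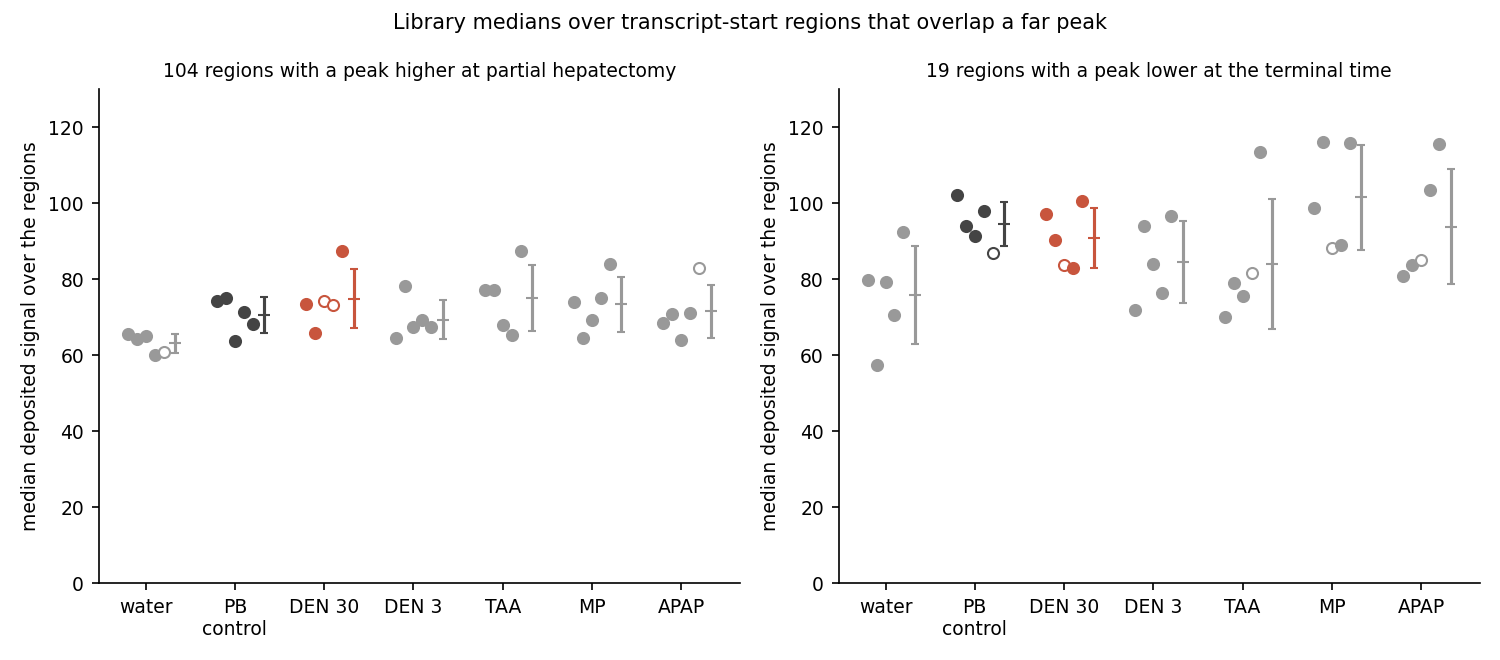
Median deposited signal per library over the 104 start regions with a far peak higher at hepatectomy (left, hepatectomy libraries) and the 19 with one lower at the terminal time (right, terminal libraries), by group, with mean and SD (n = 5); open points are weakly enriched libraries. The DEN 30 mg/kg libraries overlap the phenobarbital controls in both panels, and the hepatectomy water libraries sit between 59.9 and 65.5.

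Library medians over these regions put DEN beside its control. Over the 104 regions with a higher hepatectomy peak the median signal was 74.8 ± 7.79 after DEN at 30 mg/kg and 70.5 ± 4.70 in the promoted controls (SD, n = 5), with ranges of 65.7 to 87.3 and 63.6 to 75 that overlap. The water group had 63.1 ± 2.55, and the other 4 initiator groups had means between 69.4 (DEN at 3 mg/kg) and 75 (thioacetamide). Over the 19 regions with a lower terminal peak it was 90.9 ± 7.89 after DEN and 94.4 ± 5.87 in the promoted controls, again with overlap, and 75.8 ± 13 with water.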

How the data were processed

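Liver DNA from 70 rat samples was enriched for methylated fragments with the MethylMiner kit and read as 50 bases on a SOLiD 4 instrument, per the labels' protocols. Groups came from the sample titles and labels. The deposited peak list holds the authors' whole-number counts for the 2 sets of a comparison, a read density as signal, and an enrichment factor, the authors' ratio of both counts times a constant. The deposited region tables hold a signal per library, scaled by the authors in steps of 0.883 to 1.19, with 0.01 where no read fell. The p-value of the authors' t-test that these tables carry, per the file headers, was not used. Divided by the step the regions held 933 to 1796 × 1000 reads per library, and the median region 41 to 69. Total depth, aligner, peak caller, pooling and genome build: not given in the sources used here.

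Peaks were selected and counted in Python 3.11.15 with pandas 2.3.3, with 1 bp as an overlap. Signal was taken as log2(value + 1) in regions with 10 or more in at least 5 libraries, and limma 3.58.1 in R 4.3.3 took each group's mean, with a variance trend and a Benjamini-Hochberg threshold of 0.05. The region table of the second time is named 10W and the list says 11w, so every comparison of that time between them rests on reading both as the terminal sampling. Gene names came from the list, 19 protein entry names were set to symbols by hand, and lengths came from RefSeq (GRCr8). The fits were tested on simulated data. Replicate numbers were not used as a block in the reported fits, since the labels do not tie them to rats. If equal numbers do mark the same rat, the reported comparison between times leaves that pairing out. Alternatives covered distance, overlap, depth, pseudocount, filter, scaling, blocks and left-out libraries. No peak sequence is shown, since no genome of the files' build was used.

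The members and lists were chosen with earlier results of these data known. Genes were named by fixed rules: most far peaks, highest enrichment factor, far peaks at both times, most far peaks per list, most reads among peaks in a tabulated region, and nearest to 5000 bp. The deepest peaks, the regions without overlap, the regions with fewer reads than their peak and Farp2 were named after their values were seen. Each p-value tests a difference between group means against the spread between livers within groups, pooled over all groups of the fit, with 5 livers in each. Some items that these rules would name are not reported here.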

Additional observations from a re-analysis of the deposited data

Results flagged for a closer look

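Of 60 groups of 5 libraries whose values or means are given for named regions, 5 had a library far from the other 4, where chance gives about 1 in 20. At hepatectomy in the promoted controls, the region of Fam26e had 50.2 in replicate 4 against 42.1 to 43.4 in the others. In the same group the start region of Magi2 had 9.48 in replicate 1 against 1.11 to 3.27, and that of Cacna2d3 had 14.7 in replicate 1 against 25.4 to 29.2. At the terminal time the region of Chad had 244 in DEN replicate 3 against 497 to 591, and that of Abcc9 had 65.2 in control replicate 5 against 41.5 to 46.6. Both of these terminal libraries are weakly enriched ones. The far peaks of Magi2 and Cacna2d3 lie outside these regions.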

How the results depend on the processing

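Of 339 alternative values 296 kept a count within 1.5 times. Numbers of far peaks moved under 2 settings. With an enrichment factor at or above the median of its time, 4465 higher and 98 lower were left at hepatectomy and 287 and 665 at the terminal time, and with 30 or more reads 583, 77, 57 and 77 (chosen after the data were seen). A distance limit of 2000 or 10000 bp, keeping overlaps, a 1000 bp margin, deposited rows or a read in the other set did not move them as far.

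For DEN against promoted control, where 0 regions passed, 5 passed at hepatectomy with a pseudocount of 10, 3 with library number blocks and 1 with the replicate block (0 to 4 on leaving out each library, with 4 without promoted-control replicate 4). At the terminal time 2 passed with library number blocks (0 to 2). Regions with a far peak of the same time are not counted here, since this contrast chose their peaks. Of the 101 regions with a higher hepatectomy peak, 1 passed at the terminal time with library number blocks, that of RT1-CE5. It also held a lower terminal peak, which these libraries did choose. The same region passed without terminal promoted-control replicate 3 or without terminal DEN replicate 1. For the other initiators 1 region passed at the terminal time with the replicate block (0 to 1). Between times the 2 became 10 with library number blocks, 5 with quantile scaling, 5 without weakly enriched libraries and 13 with the replicate block within condition, a setting added later (2 to 8 on leaving out each library, with 8 without terminal DEN 3 mg/kg replicate 1 or hepatectomy thioacetamide replicate 5). The cause was not tested. Same-numbered libraries of a condition correlated by a median of 0.08 across times in 35 pairs (over 0.1 in 11), against -0.01 in 140 pairs with different numbers (20). Of 35 hepatectomy libraries 21 correlated best with their own number among the 5 terminal libraries of their condition, which is a hint of pairing from the data and not the design. The replicate block moved no other number of regions past the threshold by over 1.5 times. With it, regions with a far peak and an unadjusted p under 0.05 went from 1 to 3 for the other initiators at the terminal time. Between times they went from 5 to 8 with the block within condition. Over all regions the same numbers went from 669 to 800 and from 899 to 1081. Count tests with edgeR and DESeq2 were planned and not run, although 100% of the values above the 0.01 placeholder were whole multiples of their library's step, within 0.01 of a read. Counts of 15 to 30 reads limit single far peaks.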
